A study of Mus musculus with 13 samples.

Results

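The cells described here were sorted into the oligodendrocyte precursor cell (OPC) class by the study's authors and had transcripts of proliferation genes. They came from Drop-seq libraries, in which droplets give each cell a barcode and each captured transcript a unique molecular identifier (UMI), of the medial amygdala of C57BL/6J mice. A cell was a member when it was named OPC in the deposited table, had 500 or more detected genes and had at least 1 UMI for 2 or more of 8 genes: Mki67, Top2a, Cdk1, Ccnb1, Ccna2, Birc5, Cenpf and Ube2c. The members were therefore selected on measured values, and the levels of these 8 genes are a description and not a finding. The rule gave 95 members of 4202 OPCs with 500 or more genes, or 2.26% (exact 95% binomial interval 1.83% to 2.76%). Of the others, 3994 had none of the 8 genes and served as the comparison cells, and 113 had exactly 1. The table held 24808 cells with 500 or more genes of all classes.

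The 13 libraries were 6 from naive males and 7 from naive females, all of the same strain and with no treatment. Mice were 8 weeks old in male replicate 3, male replicate 5 and female replicate 3 and 9 weeks old in the other 10. The light cycle was reversed, and mice were housed alone for at least 1 day before dissociation by the Act-seq protocol. The labels do not say whether replicates were separate mice, so every p-value here rests on variation among libraries, and that variation may be technical. The series is titled as a study of sex differences in the control of parenting by the medial amygdala. No cell was marked as cycling by the authors.

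OPCs are glial cells that divide in the adult brain. They carry the growth factor receptor Pdgfra and the proteoglycan NG2 (Cspg4), renew themselves and give rise to oligodendrocytes, which make myelin. A dividing cell first licenses replication origins and copies its DNA (S phase), then condenses its chromosomes, builds a spindle and splits (G2 and M phase). Mki67 (the Ki-67 antigen) and Top2a (topoisomerase II alpha) are made in dividing cells, Cdk1, Ccnb1 and Ccna2 are the kinase and cyclins of late cycle, Birc5 (survivin) and Cenpf act at the kinetochore and spindle, and Ube2c passes ubiquitin to cyclins on the anaphase-promoting complex. Before OPCs mature they pass through a short stage marked by Gpr17, Bcas1 and Neu4.

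The class name held for 73 of the 95 members and went against the markers of the other 22. The 73 cells had UMIs for 3 to 10 of 10 OPC markers (median 8) and for at most 2 of 8 microglia markers, and 58 of them had none of the microglia markers. The 22 cells had 4 to 8 of the 8 microglia markers, and 17 had all 8. Of these 22, 17 had no OPC marker at all and the most that any had was 2. Pdgfra, Sox10, Vcan, C1ql1 and Matn4 were at 0 UMIs over all 22 cells, while Pdgfra was found in every one of the 73. Microglia are the resident immune cells of the brain. C1qa, C1qb and C1qc, which encode the chains of complement C1q, were found in all 22, as was the receptor Csf1r. The summed level of the 8 microglia markers was 27021 UMIs per 1000000 UMIs (CPM) in the 22 cells, 55.4 in the 73 cells and 135 in the comparison cells. In the comparison cells that also had fewer than 3 microglia markers it was 41.3. Over libraries it ran from 23555 to 36827 in the 22 cells and from 0 to 344 in the 73. The summed level of the 10 OPC markers was 83 CPM in the 22 cells, 12846 in the 73 and 17045 in the comparison cells.

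The gap between these groups of members was wide: no member had exactly 3 microglia markers. The limit of 3 was set after the values were seen. Among the 3994 comparison cells, 25 (0.626%) reached it, and each of those had 6 or more OPC markers. The 22 cells came from 9 libraries: 6 from female replicate 4, 4 each from male replicates 2 and 4, 2 each from female replicates 5 and 6, and 1 each from male replicate 1 and female replicates 2, 3 and 7. Male replicate 2 kept 1 of its 5 members without them. None of the 95 members was called a doublet by Scrublet, which marked 281 of the 24808 cells (1.13%), and no member shared a barcode with a cell of another library. Results below are given for all members and for the 73 cells, called cycling OPCs from here on, against the 3969 comparison cells with fewer than 3 microglia markers.

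**Figure D1:**
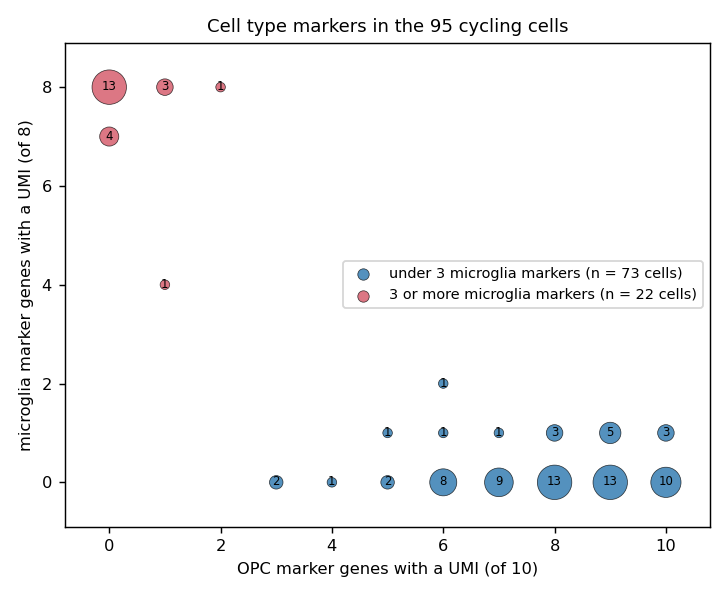
Number of OPC marker genes (x axis, of 10) and of microglia marker genes (y axis, of 8) with at least 1 UMI in each of the 95 members. Circle area and the printed figure give the number of cells at each point. The 73 cells with fewer than 3 microglia markers lie at 3 to 10 OPC markers, and the other 22 at 0 to 2.

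The 8 proliferation genes were found in both groups of members. Mki67 had a UMI in 61 of the 73 cycling OPCs (83.6%) and in all 22 microglia-marker cells. Top2a was found in 65 of 73 (89%) and 19 of 22 (86.4%). Ccnb1, a cyclin of mitosis, was the least often found, in 30 of 73 (41.1%) and 9 of 22 (40.9%). In mature oligodendrocytes, a class with a median of 3188.5 UMIs a cell against 3257 in the members, Mki67 was found in 0.0504% of cells and Top2a in 0.101%. All 8 genes were found together in 22 members, of which 18 were cycling OPCs. Exactly 2 were found in 16 members, all cycling OPCs.

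Only 10 cells of other classes met the same rule. They were 6 of 3788 microglia (0.158%), 3 of 3649 neurons (0.0822%) and 1 of 3968 oligodendrocytes (0.0252%). None of 6451 astrocytes did, which allows a share of up to 0.0465%. None of 466 newly formed oligodendrocytes, the class next after OPCs in the lineage, did either. That count allows a share of up to 0.644%, and these cells were deeper than OPCs, with a median of 4076 UMIs. The 6 microglia had 6 to 8 of the microglia markers and at most 1 OPC marker. These shares go by the deposited class, so the 22 microglia-marker cells named OPC are not in the microglia share. Together with the 6 microglia they make 28 cells. Intervals and limits here cover counting error only.

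Members were somewhat deeper than comparison cells, and members with all 8 genes were the deepest. Cycling OPCs had a median of 3139 UMIs (649 to 14474), the microglia-marker cells 3425.5 (1235 to 10347) and the comparison cells 2653.5. Members with all 8 genes had a median of 7159 UMIs, those with 2 genes 3432 and those with 3 genes 1762. With every cell thinned to 1000 UMIs, which 3708 of the 4202 OPCs reached, 2.01% met the rule.

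The share of cycling cells in males and females did not differ beyond the spread of the libraries. The 6 male libraries had a mean of 2.37% ± 0.856 (SD), and the 7 female libraries 2.25% ± 1.36 (SD). In males it ran from 1.25% in replicate 2 over a median of 2.33% to 3.77% in replicate 4. In females it ran from 0.676% in replicate 7 over a median of 2.21% to 3.75% in replicate 2. The difference of 0.114 percentage points had p = 0.841 in a two-sided exact permutation test over libraries. For cycling OPCs alone the mean share was 2.0% ± 0.92 (SD) over the male and 1.75% ± 1.22 (SD) over the female libraries, with p = 0.678 in the same exact permutation test. Over all libraries it was 73 of 4154 cells, or 1.76% (exact 95% binomial interval 1.38% to 2.2%). After thinning, and in 5 other settings, the male minus female difference changed sign. The 3 libraries of 8-week mice gave 1.83% ± 0.672 (SD, n = 3) and the 10 of 9-week mice 2.45% ± 1.21 (SD, n = 10), a split that was not tested.

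**Figure D2:**
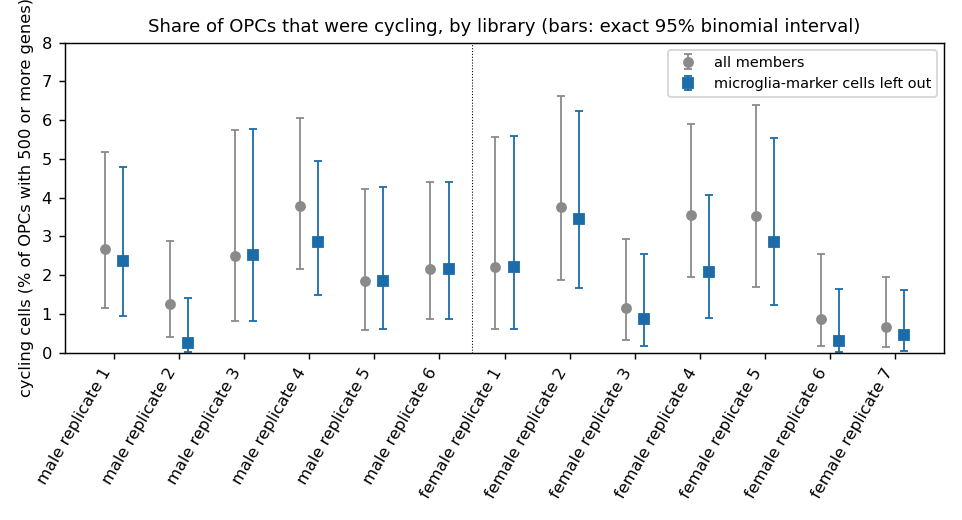
Share of OPCs that met the rule in each library, in percent, with exact 95% binomial intervals as bars. Grey circles are all members and blue squares are cycling OPCs, with microglia-marker cells left out. The intervals of most libraries overlap, and male replicate 2 goes from 1.25% to 0.254% without the microglia-marker cells.

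Across OPCs, replication genes and mitotic genes were highest at different numbers of the 8 proliferation genes. These values are pooled over cells and are a description, since the 8 genes that set the order belong to the same programme. In cells with fewer than 3 microglia markers, 56 replication genes summed to 1647 CPM at 0 proliferation genes and 3509 just outside the rule, at 1 gene (112 cells). Just inside it, at 2 genes (16 cells), they stood at 10138. They were highest at 4 to 5 genes, with 13329 (12 cells), and stood at 5842 with all 8 (18 cells). The mitotic lists, which leave the 8 genes out, went from 3856 at 0 and 4883 at 1 to 12616 at 2, and to 53868 with all 8. So the cells with all 8 genes had the highest mitotic and the lowest replication level among cycling OPCs. OPC markers went the other way, from 17074 at 0 to 15398 at 2 and 10990 at 8 genes. The markers of newly formed oligodendrocytes stood at 2321 at 0 and 1525 at 2 genes, then at 725 at 3, 1037 at 4 to 5, 993 at 6 to 7 and 686 at 8.

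**Figure D3:**
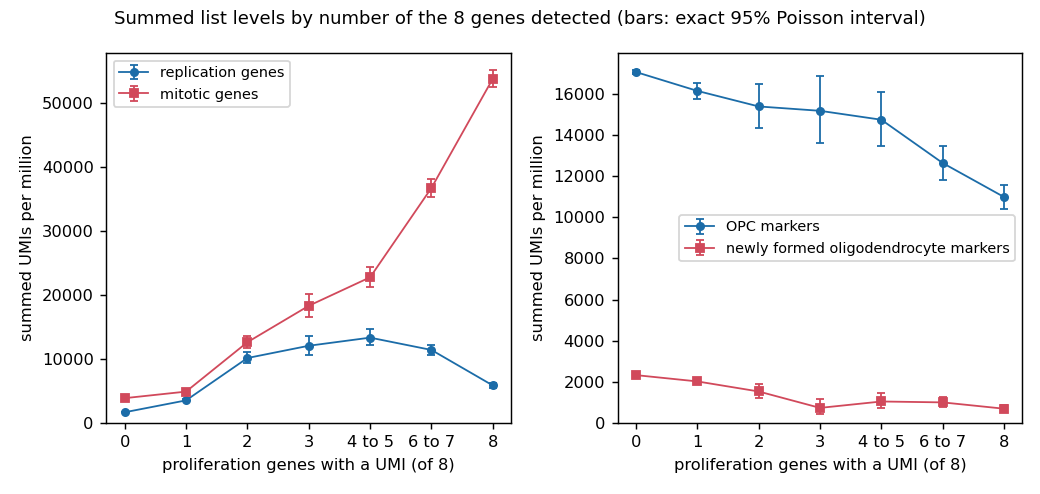
Summed CPM (y axis) by the number of the 8 proliferation genes found in a cell (x axis), in OPC-class cells with fewer than 3 microglia markers, with exact 95% Poisson intervals. Left, mitotic genes climb to 53868 at 8 genes while replication genes peak at 13329 at 4 to 5 genes. Right, OPC markers go from 17074 at 0 to 10990 at 8 genes, and newly formed oligodendrocyte markers from 2321 to 686, the latter with no steady order from 3 genes on.

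Cell by cell, most cycling OPCs carried both programmes. The 99th percentile of the comparison cells was used as a limit for each: 81.9 replication and 91.3 mitotic UMIs per 10000. Of the 73 cycling OPCs, 42 lay above both limits, 28 above the mitotic limit alone, none above the replication limit alone and 3 under both. Of the 22 microglia-marker cells, 13 lay above both and 9 above the mitotic limit alone. The rule itself asks for genes of late cycle, so cells in early S phase had less chance to be chosen. Among the 113 OPCs with exactly 1 of the 8 genes, 19 lay above the replication limit and 7 above the mitotic limit. These classes are ranges of a score: 14 members lay within 0.8 to 1.25 times the replication limit, and 4 within that range of the mitotic limit.

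Gene levels were compared between members and comparison cells of the same libraries. Counts were summed per library and state in the 9 libraries with 5 or more members (6 male and 3 female, 81 members), and tested with edgeR's quasi-likelihood test with library as a block. The 8 genes of the rule were left out. Of 6649 genes tested, 467 (7.02%) were higher in members and 607 (9.13%) lower at an adjusted p under 0.05, with a median log2 difference of -0.18 over all genes tested. With the microglia-marker cells left out (8 libraries, 62 cycling OPCs), 366 of 6584 genes (5.56%) were higher and 493 (7.49%) lower. Of the first 467 higher genes, 303 (64.9%) were called again, as were 410 (67.5%) of the 607 lower genes. These were 82.8% and 83.2% of the shorter lists. The 20 genes with the smallest adjusted p in each direction kept their direction in every alternative that tested them. Because the remaining cycle genes vary together with the 8 that chose the cells, their rise shows the makeup of the members and is not independent support for it. A gene found only in cycling cells entered the test through that state alone, so counts below are out of the genes tested and leave out those too low to test.

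Of the 20 higher genes with the smallest adjusted p, most were genes of mitosis. Prc1 (chromosome 7, 80294450 to 80316259, + strand, a protein-coding gene in GENCODE M21 on GRCm38) bundles the microtubules of the central spindle. It stood at 1523 to 2876 CPM with a median of 1737 in the cycling OPCs of 8 libraries. In their comparison cells it stood at 3.61 to 13.9 CPM with a median of 7.87. The groups did not overlap, and the log2 difference was 7.79 ± 0.20 (SE). With all members it was 7.63 ± 0.25 (SE, adjusted p = 2.6e-199 in edgeR). Pbk, a mitotic kinase, stood at 414 to 1687 CPM with a median of 839 in cycling OPCs and at 0 to 1.81 CPM in comparison cells. Nuf2, a subunit of the kinetochore complex that grips microtubules, stood at 414 to 1532 CPM against 0 to 5.98. Tpx2, which starts spindle assembly, had 1047 ± 259 against 6.06 ± 4.18 CPM (SD, n = 8). Kif11, the motor that separates spindle poles, had 565 ± 234 against 0.673 ± 0.755 CPM (SD, n = 8). Every library had the higher value in its cycling cells for each of these 5 genes.

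By list, 21 of the 22 tested spindle, kinesin and cytokinesis genes were higher in all members and none lower, with a median log2 difference of 6.79. Another 19 of the 41 listed were too low to test. In cycling OPCs the list summed to 12455 to 21074 CPM, against 470 to 544 in comparison cells. Of 21 tested centromere and kinetochore genes 20 were higher, with a median of 4.71. Of 15 condensin, cohesin and separase genes 12 were higher, with a median of 2.0 (2.22 in cycling OPCs). Smc4 and Smc2, the core of condensin, which folds chromosomes for mitosis, stood at 972 ± 213 and 845 ± 239 CPM in cycling OPCs against 35.9 ± 8.26 and 46.7 ± 11.3 (SD, n = 8). The cohesin subunit Rad21, which holds sister chromatids together, stood at 1177 ± 595 against 233 ± 15.5 CPM (SD, n = 8). Its partners Smc3 and Smc1a had log2 differences of 0.69 ± 0.19 and 1.37 ± 0.16 (SE) in cycling OPCs. Stag2 had 0.01 ± 0.31. Esco2, an acetyltransferase that locks cohesin in S phase, had 120 UMIs in members and 3 in comparison cells of the 9 libraries, a ratio of 969 (exact 95% interval 324 to 4767). Ska1 and Fam64a had no UMI in those comparison cells and were at least 388-fold and 622-fold higher in members, with a floor of 3 counts over the group.

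Genes of mitotic ubiquitin ligation, among them those of the anaphase-promoting complex, which marks mitotic proteins for destruction, were higher in part. Of 13 tested genes 3 were higher with all members (Fzr1, Anapc5 and Cdc27), and 5 of 15 in cycling OPCs, where Cdc20 and Ube2t were tested too; none was lower. Over the 13 genes tested with all members, the median log2 difference was 0.56 with all members and 0.26 in cycling OPCs. Cdc20 and Ube2t are not in these medians. Cdc20, an activator of the complex, was too low to test over all members. Cdc20 stood at 222 to 1085 CPM in cycling OPCs and 0 to 5.98 in comparison cells.

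DNA replication genes were higher as well, by less. All 23 tested genes of DNA synthesis and nucleotide supply rose with all members, and all 22 tested in cycling OPCs did. Over the 23 genes the median log2 differences were 2.42 and 2.21. Rrm2, the regulated subunit of ribonucleotide reductase, which makes deoxyribonucleotides, stood at 46 to 383 CPM with a median of 241 in cycling OPCs. Its comparison cells stood at 1.27 to 9.92 CPM, so the groups did not overlap, and the log2 difference was 5.46 ± 0.37 (SE, adjusted p = 3.1e-46 in edgeR). Pcna, the clamp that holds polymerases on DNA, stood at 383 to 1333 CPM with a median of 737, against 89.8 to 134 CPM. Its log2 difference was 2.73 ± 0.19 (SE, adjusted p = 1.3e-43 in edgeR). For origin licensing and firing, 10 of 11 tested genes were higher with all members and 9 of 11 in cycling OPCs. Cdc45, which is loaded onto the replicative helicase, rose from 3.5 ± 2.01 to 113 ± 56.2 CPM (SD, n = 8). Mcm5, a subunit of that helicase, rose from 20.1 ± 7.09 to 114 ± 39.8 CPM (SD, n = 8).

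Of the cyclins, cyclin-dependent kinases and other cycle kinases, 4 of 9 tested genes were higher with all members and 11 of 15 in cycling OPCs, and none was lower. Ccne2, a cyclin of the start of S phase, was higher in cycling OPCs, at 129 ± 51.2 against 11.8 ± 7.45 CPM (SD, n = 8). Ccnb2, a cyclin of mitosis, stood at 128 to 830 CPM against 0 to 4.49, and the kinase Plk1 at 127 to 434 against 0 to 1.5. Ccnd1, the cyclin that couples growth factors to the cycle, was high in both states. It stood at 765 to 1460 CPM in cycling OPCs and 549 to 928 in comparison cells, and these ranges overlap. Its log2 difference was 0.52 ± 0.14 (SE, adjusted p = 0.0045 in edgeR) in cycling OPCs, and 0.35 ± 0.18 (SE, adjusted p = 0.19 in edgeR) with all members. Its partner Cdk4 had 0.21 ± 0.22 (SE) in cycling OPCs. The inhibitor Cdkn1b (p27), which holds cells out of the cycle, had a log2 difference of -0.05 ± 0.26 (SE) and did not pass the test. Of 8 tested inhibitors and antiproliferative genes, Cdkn2c (p18) and Cdkn2d (p19), inhibitors of the cyclin D kinases, were higher. Cdkn2c stood at 184 to 774 CPM with a median of 414 in cycling OPCs and at 0 to 8.52 CPM in comparison cells. Of the transcription factors, Foxm1, which drives mitotic genes, stood at 37.6 to 467 CPM against 0 to 1.81.

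Chromatin and nuclear envelope genes were higher with less contrast. Of 32 tested genes for chromatin proteins and histone variants 23 were higher and none lower, with a median of 1.38 (1.09 in cycling OPCs). Hmgb2, a DNA-bending protein, stood at 382 to 1244 CPM in cycling OPCs against 13.3 to 32.2. The histone variants H2afz and H2afx stood at 554 ± 160 and 592 ± 229 CPM against 57 ± 12.5 and 50.7 ± 7.4 (SD, n = 8). Replication-dependent histones, whose messages lack the poly(A) tail that Drop-seq beads capture, were too low to test save for Hist1h2bc, which did not pass. Tubulins divided by gene. Tuba1b, Tubb5 and Tubb4b were higher, with log2 differences of 2.55 ± 0.16, 2.14 ± 0.14 and 2.73 ± 0.24 (SE) in cycling OPCs. Tuba1a and Tubb2b were lower, with -0.84 ± 0.13 and -0.60 ± 0.20 (SE). Stmn1, which destabilises microtubules, was higher by 3.81 ± 0.32, while its relative Stmn4 was lower by -1.08 ± 0.25 (log2, SE).

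Promoters of the 3 mitotic and 3 replication genes with the smallest p among those called and taken from the RefSeq table are shown because known cycle control acts there. The CHR element (TTTGAA) and the CCAAT box (CCAAT) are known from genes of G2 and M phase, and E2F sites (TTT, then any 2 of C or G, then CGC) from genes of S phase. Motifs were searched on both strands in the 250 bases before each start, with no overlap between different motifs required. Sequences are RefSeq's on GRCm38.p6, the last 150 bases before the start, 5′ to 3′ on the strand of the gene, with matches in capitals.
Prc1, chr7:80294301-80294450, + strand: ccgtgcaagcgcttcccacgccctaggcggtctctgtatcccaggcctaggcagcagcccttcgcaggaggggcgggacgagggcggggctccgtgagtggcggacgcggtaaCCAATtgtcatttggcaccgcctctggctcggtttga
Nuf2, chr1:169531465-169531614, - strand: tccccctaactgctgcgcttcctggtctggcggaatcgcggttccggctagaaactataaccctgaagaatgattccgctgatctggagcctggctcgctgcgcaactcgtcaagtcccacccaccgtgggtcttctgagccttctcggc
Ckap2l, chr2:129297213-129297362, - strand: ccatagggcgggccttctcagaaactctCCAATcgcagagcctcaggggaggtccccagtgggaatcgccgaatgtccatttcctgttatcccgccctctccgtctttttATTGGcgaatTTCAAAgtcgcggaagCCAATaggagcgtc
Rrm2, chr12:24708104-24708253, + strand: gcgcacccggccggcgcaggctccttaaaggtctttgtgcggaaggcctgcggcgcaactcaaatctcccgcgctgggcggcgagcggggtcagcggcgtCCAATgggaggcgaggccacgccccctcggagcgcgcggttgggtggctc
Pcna, chr2:132253181-132253330, - strand: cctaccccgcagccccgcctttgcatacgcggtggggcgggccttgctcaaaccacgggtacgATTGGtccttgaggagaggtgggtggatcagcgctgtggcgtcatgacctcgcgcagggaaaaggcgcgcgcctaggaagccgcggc
Rrm1, chr7:102441545-102441694, + strand: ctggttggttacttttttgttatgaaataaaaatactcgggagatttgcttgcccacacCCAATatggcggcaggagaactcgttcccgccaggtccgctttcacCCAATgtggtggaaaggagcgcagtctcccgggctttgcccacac
Ckap2l held a CHR element and 3 CCAAT boxes in this window, Rrm1 held 2 CCAAT boxes and Nuf2 held no match. The CCAAT box was in 35 of 50 promoters (70%) of called mitotic genes and in 33.9% of all 32851 promoters. CHR was in 15 of 50 (30%) against 16% of all. It was in 16.7% of promoters of called replication genes, 16.6% of those of all higher genes and 10.2% of those of genes tested. The CCAAT box was also in 61.1% of promoters of called replication genes, in 51.6% of those of all higher genes and in 35.3% of those of genes tested. E2F sites were in 7 of 36 promoters (19.4%) of called replication genes, 3.53% of those of genes tested and 1.86% of all. They were in 10% of promoters of called mitotic genes and 9.15% of those of all higher genes. By symbol, 45 of 56 called mitotic and 28 of 33 called replication genes were matched. A match is a description of the letters and not a site of binding.

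Most tested markers of newly formed oligodendrocytes were lower in cycling cells. In these data they were found broadly in the OPC class. Gpr17, Bcas1 and Neu4 had a UMI in 86%, 56.5% and 54.5% of comparison cells. In cycling OPCs the shares were 79.5%, 38.4% and 23.3%. Whether a maturing subset was absent from the cycling cells was not tested. Gpr17, a receptor that marks precursors about to mature, stood at 338 to 957 CPM with a median of 465 in cycling OPCs and at 1010 to 1523 with a median of 1207 in comparison cells. It was lower in every one of the 8 libraries with no overlap, by a log2 difference of -1.38 ± 0.16 (SE, adjusted p = 8.5e-17 in edgeR). With all members it was -1.56 ± 0.20 (SE), and -1.11 with depth-matched comparison cells and no microglia-marker cells. Bcas1, which marks early myelinating cells, stood at 46 to 244 CPM against 331 to 517 CPM, with -1.53 ± 0.24 (SE). Neu4, a sialidase of newly formed oligodendrocytes, had a median of 67.5 CPM against 394, and the groups overlapped because male replicate 1 stood at 414. Of 5 tested markers of newly formed oligodendrocytes 4 were lower with all members and in cycling OPCs alike, and none was higher. Tcf7l2 did not pass the test. Bmp4 and Enpp6 had no UMI in any cycling OPC, but stood at only 0.5 and 0.76 CPM in comparison cells. Mbp and Cnp, genes of mature myelin, did not pass the test.

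Most OPC markers were lower too, to unlike degrees, while Pdgfra was level in cycling OPCs. With all members 9 of 10 were lower, with a median log2 difference of -0.96, but the 22 microglia-marker cells lack these genes. In cycling OPCs, where the markers were used to describe the cells and were not tested, the median was -0.63, beside -0.23 for all genes tested. Pdgfra, the receptor for the main OPC mitogen, stood at 2475 to 4213 CPM in cycling OPCs and 2545 to 3417 in comparison cells, a log2 difference of 0.01 ± 0.10 (SE). Olig2 had -0.20 ± 0.13 and Ptprz1 -0.29 ± 0.10 (SE). The lineage factor Olig1 stood at 2170 to 3060 CPM against 3261 to 4258, with no overlap. C1ql1 (chromosome 11, 102939264 to 102946688, - strand), a secreted C1q-domain protein of OPCs, was the lowest relative to comparison cells. It stood at 42.5 to 255 CPM with a median of 125, against 505 to 713 with a median of 575, a log2 difference of -2.08 ± 0.23 (SE). Matn4, a matrix protein, had -1.17 ± 0.18 (SE). Pooled over libraries, Cspg4, Sox10, Vcan and Cacng4 stood at 564, 320, 809 and 1246 CPM in cycling OPCs. In comparison cells they stood at 890, 573, 1355 and 1682 CPM. The summed list stood at 11967 to 15764 CPM in the cycling OPCs of 8 libraries and at 16303 to 18662 in their comparison cells, with no overlap.

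**Figure D4:**
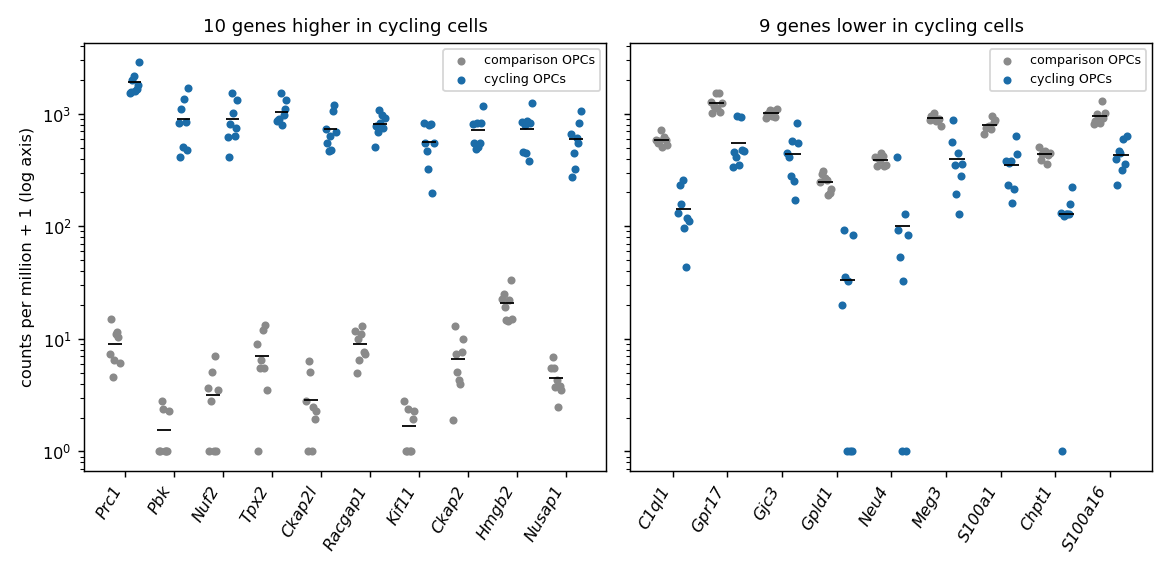
CPM plus 1 (log axis) of genes among those with the smallest adjusted p in each direction, 10 of them higher and 9 lower, in cycling OPCs (blue) and comparison cells (grey) of 8 libraries, with microglia-marker cells left out. Points are libraries and lines are means. For Gpr17 the cycling OPCs stand at 338 to 957 and the comparison cells at 1010 to 1523, whereas for Neu4 and Meg3 the groups overlap.

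Other genes with the smallest adjusted p among those lower included Gpld1, an enzyme that cuts glycosylphosphatidylinositol anchors, and Gjc3, a gap junction protein of oligodendrocyte lineage cells. Gpld1 stood at 0 to 91.9 CPM in cycling OPCs against 188 to 308, a log2 difference of -2.95 ± 0.39 (SE). Gjc3 stood at 170 to 829 CPM against 920 to 1108, with -1.34 ± 0.17 (SE). Of 11 tested glycolysis genes, 3 were lower and 1 higher in cycling OPCs, and 7 did not pass the test. Over all genes tested in cycling OPCs, 7.49% were lower and 5.56% higher. Aldoc and Aldoa were lower, by -1.58 ± 0.22 and -2.29 ± 0.34 (log2, SE), as was Ldhb, while Tpi1 was higher by 0.93 ± 0.31. Of 20 named lower genes 18 were called again in cycling OPCs, and the other two, C1ql1 and Matn4, are OPC markers left out of that test. Of 3 tested astrocyte markers all were lower in cycling OPCs (Slc1a2, Slc1a3 and Aldoc, which is also in the glycolysis list). Of 4 neuron markers Snap25 and Meg3 were lower. Summed neuron markers stood at 212 to 1103 CPM in cycling OPCs and 1062 to 1444 in comparison cells of the 8 libraries. Rbfox3, Slc17a6 and Slc32a1 had no UMI in cycling OPCs, but stood at only 7.3, 5.2 and 3.1 CPM in comparison cells. Syt1 stood at 65.2 CPM in cycling OPCs and 64.4 in comparison cells, and Nrgn at 22.8 and 12.8. The part of neuron markers in the lower genes was not tested.

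Some calls over all members were lost without the microglia-marker cells. Ribosomal protein genes had 14 of 59 tested genes higher over all members, with a median of 0.38, and 0 of 59 in cycling OPCs by edgeR, with a median of 0.08. Sparc, a matrix protein, stood at 0 to 4149 CPM over all members and at 0 to 170 in cycling OPCs. Its log2 difference went from 2.57 ± 0.73 (SE, adjusted p = 0.048 in edgeR) to -0.61 ± 0.35 (SE, adjusted p = 0.28 in edgeR). Of 22 tested transcription factors of the lineage 10 were lower over all members, and 4 of 19 in cycling OPCs: Sox8, Id3, Zfp488 and Myt1. Olig1, Olig2 and Sox10, among the 10, are OPC markers left out of the second test and are not lost calls. Of 23 ion channels and transmitter receptors 9 and then 4 were lower: Gria2, Kcnj16, Scn2a1 and Scn3a. Matrix and adhesion genes kept more calls, with 13 and then 11 of 21 lower, among them the proteoglycans Bcan and Cspg5. Mitogen and Notch pathway genes had 3 of 18 and then 1 of 16 lower, the latter Gpr37l1, which is no more than the background. Over all genes tested, 7.02% were higher and 9.13% lower with all members, and 5.56% were higher and 7.49% lower in cycling OPCs. The list counts of this paragraph stand beside the share of the same direction. Of 5 tested immediate early genes, which dissociation can induce, none passed either edgeR test.

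**Figure D5:**
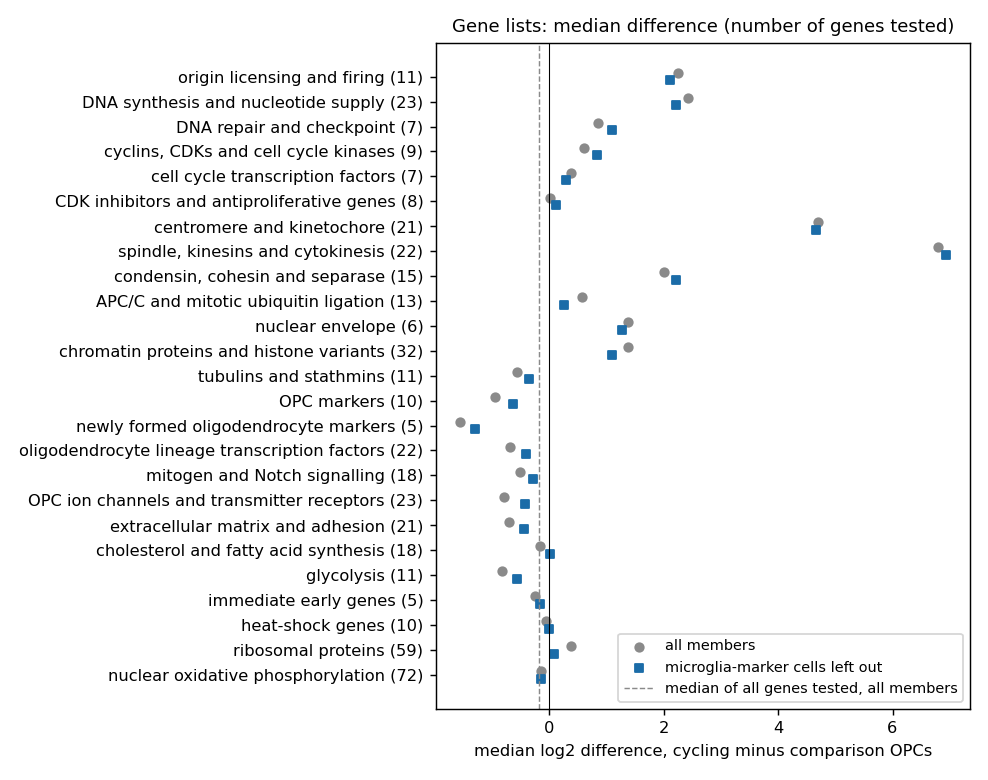
Median log2 difference between cycling and comparison OPCs for lists with 5 or more genes tested (number in brackets), for all members (grey) and with microglia-marker cells left out (blue). The dashed line is the median of all genes tested, -0.18. Spindle and kinetochore genes stand highest, and markers of newly formed oligodendrocytes lowest.

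Depth was matched by taking 3 comparison cells of like UMI count per cycling OPC from the same library (219 cells, median 3145 UMIs). On the smaller counts 1199 genes were tested, of which 164 were higher and 135 lower. Of these, 127 and 134 had been called in the same direction against all comparison cells. Spindle genes had a median log2 difference of 6.63 against matched cells and markers of newly formed oligodendrocytes -1.11.

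Between male and female members, Xist was the single gene to pass the test. Of 700 genes tested between 6 male and 3 female libraries, 1 (0.143%) passed in edgeR: Xist, the RNA that silences an X chromosome, at 0 UMIs in all male members and at 1382 to 4634 CPM in the 7 female libraries. The Y-linked genes Ddx3y, Eif2s3y, Kdm5d and Uty had 0 UMIs in female members. At an unadjusted p under 0.05 there were 25 genes, Xist included. The next was Ndc80, with a mean of 293 CPM in males and 673 in females (adjusted p = 0.99 in edgeR). The difference between members and comparison cells was not shown to depend on sex. No gene of 9005 (0.0%) passed the edgeR test of the state by sex term, 300 had an unadjusted p under 0.05, DESeq2 called 0, and limma voom called 4 sex-linked genes (Xist, Tsix, Eif2s3y and Kdm5d). With microglia-marker cells left out, 1 gene of 527 differed by sex and 0 of 8640 by state and sex.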

How the data were processed

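The authors deposited 1 table of UMI counts per gene and cell for 43388 cells and 16961 genes, with library and cell class in each cell's name. Per the submitters' processing notes, reads were converted with bcl2fastq 2.17.1.14 and aligned with STAR 2.5.0a to mm10. How UMIs were collapsed, cells kept and classes called: not given in the sources used here. Filters, members and pseudobulk sums were made with pandas 2.3.3, and doublets scored per library with Scrublet in scanpy 1.11.5. Sums per library and state held 13498 to 71330 UMIs for members and 506321 to 1126216 for comparison cells. They were tested with edgeR 4.0.16 (TMM, filterByExpr, robust quasi-likelihood fit, Benjamini-Hochberg over all genes tested, threshold 0.05), with DESeq2 1.42.0 and limma 3.58.1 as alternatives. The edgeR steps were tested on simulated data.

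Named genes were up to 20 per direction with the smallest adjusted p over all members and at least 20 CPM in the higher state, the 8 genes of the rule, and members of fixed lists. The members and lists were chosen with earlier results of these data known. The split by microglia markers, and the alternatives without those cells, in all 13 libraries and without TMM, were added after the data were seen. The microglia markers that set the split, and the OPC markers that describe its groups, were left out of its tests. List medians in cycling OPCs cover the genes tested with all members. Cdc20, Ccnb2 and Plk1 are given as levels because over all members they were too low to test. Sequences were matched by symbol to RefSeq (GRCm38.p6). A few genes of these rules are not reported here.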

Additional observations from a re-analysis of the deposited data

Results flagged for a closer look

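In male libraries, 3 values stood apart from the rest of their group, among 48 groups of values checked. Chance alone marks about 1 in 20 such groups. The median UMI count of comparison cells was 3507 in male replicate 1, and the next highest male library had 2664. Prc1 stood at 74.1 CPM in the members of male replicate 2, and the next lowest male library had 1451. In that library 4 of 5 members carried microglia markers, and it did not enter the test without those cells. Neu4 stood at 385 CPM in the members of male replicate 1, and the next highest male library had 91.9. In the test over libraries Neu4 remained lower in every alternative that tested it. Within male replicate 1 it was not lower in cycling OPCs, at 414 CPM against 411 in comparison cells.

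Cells under the limit of 500 detected genes were outside the comparisons, and 24 of 1024 such OPCs (2.34%) had 2 or more of the 8 proliferation genes. Among OPCs with 500 or more genes the share was 2.26%. They had a median of 401 UMIs (251 to 795) and came from 12 libraries. Of these cells, 16 had no microglia marker and 8 had 3 or more. Only 1 of 17556 cells of other classes under 500 genes met the rule.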

How the results depend on the processing

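For the male minus female share (0.114 percentage points), the sign changed on thinning to 1000 UMIs (-0.262) and in the paired comparison with replicate number as a replicate block (-0.148, p = 0.875 in an exact permutation test over 6 pairs). Leaving out libraries in turn gave -0.168 to 0.365, below 0 without male replicate 4 or female replicates 3, 6 or 7. Same-numbered males and females did not deviate together: correlations over 8590 genes ran from -0.0335 to 0.15, over 0.1 for 1 of 6 pairs, and 1 male library correlated best with its own number. With the replicate block, the count of genes differing by sex stayed at 1. Genes differing between members and comparison cells (1074, 467 higher and 607 lower) numbered 2597 (1018 and 1579) with no filter on genes, 1944 (1551 lower) in all 13 libraries, 312 (164 and 148) with depth-matched cells, and 299 (164 and 135) with those and no microglia-marker cells. Leaving out a library gave 813 to 1127 in all, 366 to 524 higher and 441 to 638 lower. Without a gene filter 4 genes differed by sex, and limma voom gave 4 for the state by sex term. List medians moved beyond their spread between libraries in 7 of 155 cases. Depth-matched cells gave 6.12 for spindle genes and 2.23 for condensin and cohesin genes. The latter had 2.22 without microglia-marker cells and 2.42 with matching too. Genes of the anaphase-promoting complex and mitotic ubiquitin ligation had 0.14 with both, and chromatin genes 1.09 and 0.99. All 896 refits of 40 named genes kept direction and call. Leaving out all cells with markers of any other class was not run, since 11 members remained.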
